A study of Mus musculus with 6 samples.

Results

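The 10 genes for replacement histones and high-mobility-group (HMG) proteins described here were measured in RAW264.7 cells, a mouse macrophage line derived from an ascites tumour that Abelson leukaemia virus had induced. They were taken by name, with earlier results of these data known. The histone variant genes were H2afz, H2afv, H2afx, H2afy, H3f3a and H3f3b, and the HMG genes were Hmgb1, Hmgb2, Hmgn1 and Hmgn2. Each of the 10 symbols matched 1 identifier among the 55401 genes listed, and all 10 passed the filter on low counts that left 14269 genes for testing. The question of the series, from its title, is how NOP16, a nucleolar protein described there as mimicking a histone, acts on H3K27 methylation and gene repression. Poly(A)-enriched RNA was sequenced from 3 libraries titled as control siRNA, with the genotype tag WT, and 3 titled as Nop16 siRNA, with the tag Nop16 KD. One treatment text, a Nop16 siRNA at 20 nM over 3 days with a lipid transfection reagent, is attached to all 6 samples, so what the controls received is not known beyond the titles. The line is a single transformed line, and no label ties the libraries to separate cultures, so the p-values measure the spread between these libraries, which may be technical.

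Nucleosomes made during S phase carry histones from the replication-dependent genes, whose transcripts end in a stem-loop and mostly lack a poly(A) tail. Variant histones are made from separate genes, mostly with introns and poly(A) tails, and are put into chromatin by dedicated chaperones. Among the 10 genes H2afx is an exception, an intronless gene that gives both kinds of transcript. HMG proteins are abundant, loosely bound chromatin proteins: the HMGB proteins bend DNA with their HMG boxes, and HMGN proteins bind the nucleosome core. HMGB1 is also released by activated or dying macrophages and then acts as an inflammatory signal.

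H3f3a and H3f3b encode the same protein, histone H3.3, from different DNA, which is shown here because it is what lets their RNAs be counted apart. Their coding sequences of 411 bases differ at 95 bases and, once translated, at 0 of 136 residues. In the GENCODE transcripts, bases 61 to 120 of each coding sequence read as follows, with the bases that differ between the genes in capitals. Bases 82 to 84 are the codon of lysine 27, counted without the first methionine, the residue that PRC2 methylates.
H3f3a: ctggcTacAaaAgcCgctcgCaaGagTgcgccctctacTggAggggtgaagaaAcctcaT
H3f3b: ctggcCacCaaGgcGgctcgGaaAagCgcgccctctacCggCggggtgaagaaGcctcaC

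H2afz and H2afv encode the paired forms of histone H2A.Z, which differ at 3 of 128 residues, while their coding sequences of 387 bases differ at 81. The same window, again with differing bases in capitals, holds 15 differences, against 11 in the H3.3 pair.
H2afz: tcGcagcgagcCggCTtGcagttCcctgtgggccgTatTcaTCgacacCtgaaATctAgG
H2afv: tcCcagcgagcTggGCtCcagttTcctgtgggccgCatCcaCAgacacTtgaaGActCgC

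The longest identical run between any complete coding transcripts was 23 bases for the H3.3 pair and 14 bases for the H2A.Z pair. It was 20 bases for Hmgb1 and Hmgb2 and 17 bases for Hmgn1 and Hmgn2.

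Nop16 itself had 388, 437 and 402 counts in the control libraries and 61, 72 and 84 counts in the Nop16 siRNA libraries, a fall to 22.4% of control (edgeR adjusted p = 2.94e-23). Library totals ran from 15601477 to 23061922 counts, and every control library was deeper than every Nop16 siRNA library. Of 16 macrophage identity genes, all were tested, 10 were higher and 1, Fcgr1, was lower, while Spi1, Adgre1, Tyrobp, Irf8 and Mrc1 did not pass. Their summed level was 6298 to 6597 CPM in controls and 9503 to 9919 CPM after Nop16 siRNA. A large part of that rise came from Lyz2, with a mean of 1144 CPM in controls and 2934 CPM after Nop16 siRNA. CPM here are counts scaled by the total of tested genes after TMM normalisation. Of 30 markers of other cell types, 7 were tested and 11, among them Cd3e, Krt8 and Col1a2, had 0 counts in all 6 libraries. The summed level of the 7 was 38.3 to 41.6 CPM in controls and 34 to 35.7 CPM after Nop16 siRNA, and only Ighm changed, falling by 0.89 on the log2 scale.

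Of the 10 genes, 9 fell after Nop16 siRNA and none rose. Hmgn1 did not pass the test. The falls ranged from 0.21 for H2afy to 1.16 for H2afx on the log2 scale, with a median of -0.45 over all 10, against -0.0002 over all genes tested. Across all genes tested, 45.4% passed edgeR's quasi-likelihood test at an adjusted p below 0.05, 22.4% lower and 23% higher. The 3 libraries of one group lay wholly above those of the other for the same 9 genes, and for 52.5% of all genes tested. Against a minimum change of 1.2-fold, 6 of the 10 were lower (H2afx, Hmgb2, H2afz, H2afv, Hmgb1 and Hmgn2), against 8.78% of all genes tested. Without Nop16 siRNA replicate 2, Hmgn2 missed this threshold (adjusted p = 0.0549 in edgeR). Because the 10 were chosen with earlier results of these data known, the shares over all genes are no independent comparison. With every library thinned to the smallest total, the same count of 9 was lower. In RNA from whole cultures, fewer cells of one type or cycle phase and less RNA per cell cannot be told apart.

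**Figure D1:**
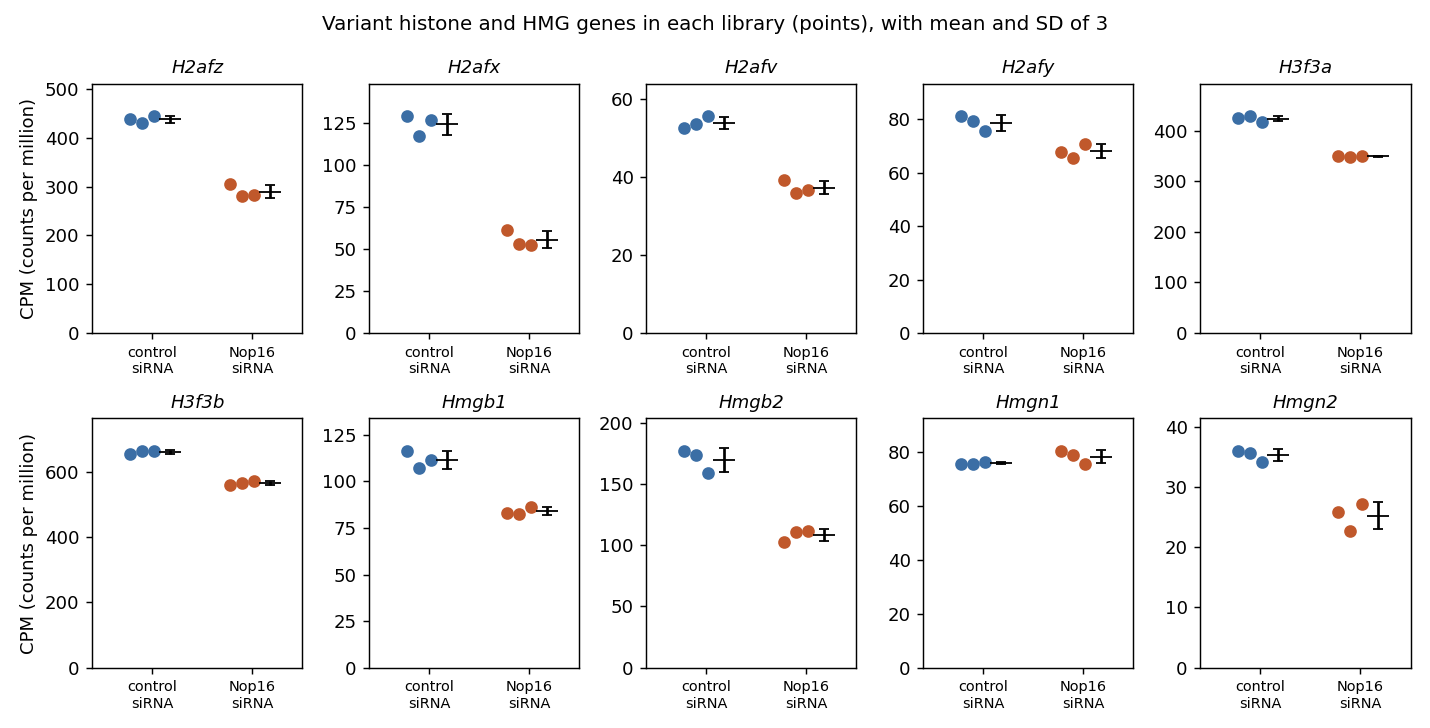
Each panel plots 1 gene in CPM from 0, with a point for each of 3 control siRNA libraries (blue) and 3 Nop16 siRNA libraries (orange) and the mean with its SD. In every panel but that of Hmgn1 the orange points lie below the blue ones.

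H2afx, which encodes the histone that is phosphorylated around DNA breaks, had the largest fall among the 10. It stood at 129, 117 and 127 CPM in control replicates 1 to 3 and at 61.6, 52.9 and 52.7 CPM in the Nop16 siRNA replicates. The lowest control library was thus well above the highest Nop16 siRNA library. The mean went from 124 ± 6.4 to 55.7 ± 5.13 CPM (SD, n = 3 each), 44.7% of control. On the log2 scale it fell by 1.16 with a SE of 0.0505 (edgeR adjusted p = 2.91e-24), and 0.932% of tested genes had a lower fold change. The gene lies at chr9:44334694-44336077 on the plus strand of GRCm38 and shares 10.2% of its exonic length with Gm44335 on the opposite strand, which stranded counting keeps apart.

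The main H2A.Z gene, H2afz, at chr3:137864487-137866922, fell by 0.60. It had 439, 431 and 444 CPM in controls and 305, 281 and 283 CPM after Nop16 siRNA, so the groups were far apart and Nop16 siRNA replicate 1 was the highest of its group. The log2 fold change had a SE of 0.0314 (edgeR adjusted p = 1.66e-24). H2afv, the less abundant H2A.Z gene, at chr11:6427229-6444443, had 52.5, 53.5 and 55.6 CPM in controls and 39.3, 36 and 36.6 CPM after Nop16 siRNA. No library of one group reached the other, and it fell by 0.53 (SE 0.0589, edgeR adjusted p = 1.73e-11). H2A.Z is placed at promoters and enhancers by the SRCAP and p400 remodellers. Summed per kilobase, the H2A.Z genes held 280 ± 4.49 CPM in controls and 186 ± 8.57 CPM after Nop16 siRNA (SD, n = 3 each), 66.4% of control.

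The H3.3 genes, the source of the H3 that is laid down outside S phase, fell by less than H2afz, with 95% intervals wholly above that of H2afz. H3f3b, at chr11:116021912-116027962, had 654, 663 and 664 CPM in controls and 560, 565 and 572 CPM after Nop16 siRNA, and fell by 0.22 (SE 0.0279, edgeR adjusted p = 7.37e-10). H3f3a, at chr1:180800832-180813943, had 424, 429 and 418 CPM against 349, 347 and 351 CPM and fell by 0.28 (SE 0.0294, edgeR adjusted p = 3.24e-12). Spread within groups was small for both, and no library of one group overlapped the other. Neither change passed against the 1.2-fold minimum. Together the H3.3 genes went from 343 ± 2.2 to 290 ± 2.45 CPM per kilobase (SD, n = 3 each), 84.5% of control.

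H2afy, at chr13:56073619-56136361, encodes macroH2A1, whose large C-terminal domain is associated with silent chromatin. It had 81.2, 79.2 and 75.5 CPM in controls and 67.9, 65.6 and 70.9 CPM after Nop16 siRNA, the narrowest gap among the 9 that fell relative to its level. Its log2 fold change was -0.21 (SE 0.0483, 95% interval -0.30 to -0.11, edgeR adjusted p = 0.000292).

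Among the HMG genes, Hmgb2 fell most. This gene, at chr8:57511907-57515999, encodes the HMGB protein typical of dividing cells. It had 177, 174 and 159 CPM in controls and 103, 111 and 112 CPM after Nop16 siRNA, with a mean of 170 ± 9.7 against 108 ± 4.91 CPM (SD, n = 3 each). The groups did not overlap, and the fall was 0.65 on the log2 scale (SE 0.0404, edgeR adjusted p = 2.53e-20). Hmgb1, at chr5:149046702-149184489, had 116, 107 and 111 CPM in controls and 82.8, 82.6 and 86.3 CPM after Nop16 siRNA. All controls were above all Nop16 siRNA libraries, and it fell by 0.41 (SE 0.0432, edgeR adjusted p = 3.64e-12).

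The HMGN genes gave unlike values. Hmgn2, at chr4:133964738-133968650, had 36, 35.6 and 34.2 CPM in controls and 25.8, 22.7 and 27.2 CPM after Nop16 siRNA. Its groups were also apart, and it fell by 0.48 (SE 0.0738, edgeR adjusted p = 1.35e-07). Hmgn1, at chr16:96120618-96127729, had 75.6, 75.6 and 76.4 CPM against 80.4, 78.8 and 75.7 CPM. Its groups overlapped, since Nop16 siRNA replicate 3 lay within the control range. The log2 fold change of 0.05 had a 95% interval from -0.05 to 0.14 (edgeR adjusted p = 0.454), an interval that lies above that of each of the other 9 genes.

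**Figure D2:**
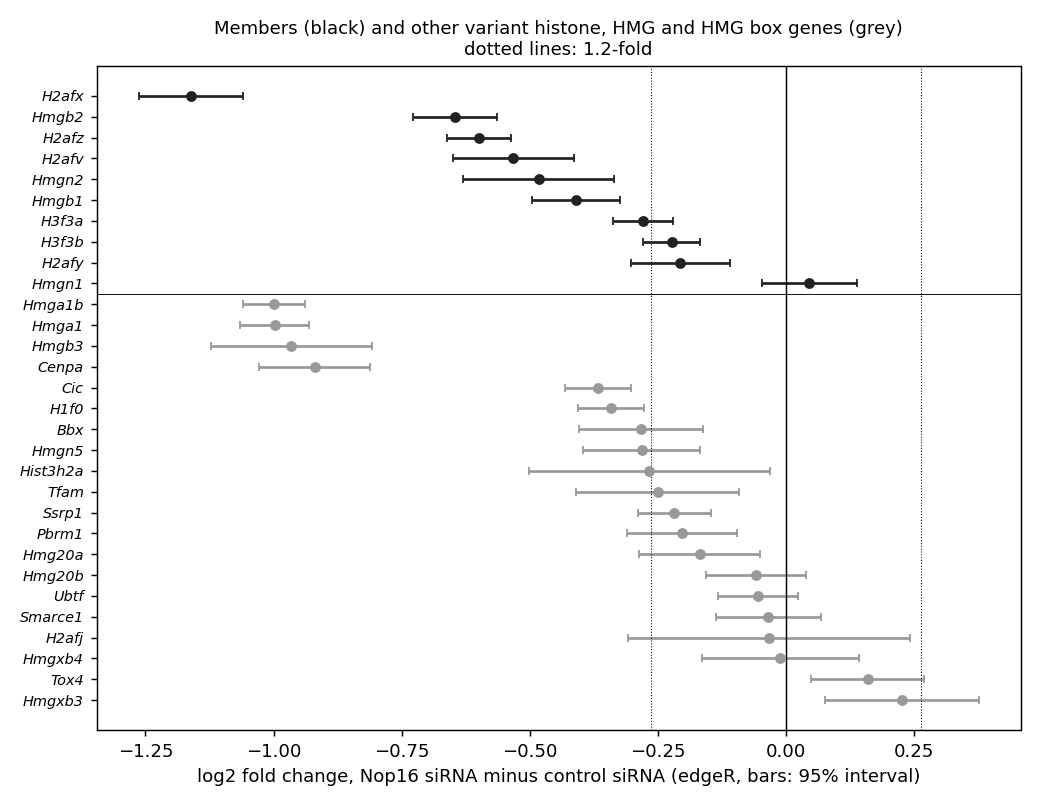
Points are log2 fold changes (Nop16 siRNA minus control siRNA) with 95% intervals from edgeR for the 10 genes (black) and for other tested variant histone, HMG and HMG box genes with a control mean of at least 5 CPM (grey). The dotted lines mark 1.2-fold; H2afx stands at -1.16, Hmgn1 at 0.05, and Hmga1, Hmgb3 and Cenpa lie near -1 among the grey points.

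Ratios between related genes were taken within each library, where no scaling enters. Hmgn1 had a log2 ratio of counts to Hmgn2 of 1.07, 1.09 and 1.16 in controls and 1.64, 1.79 and 1.48 after Nop16 siRNA, a rise of 0.53 (1.45-fold). The log2 ratio of Hmgb1 to Hmgb2 was -0.60, -0.70 and -0.51 in controls and -0.31, -0.42 and -0.38 after Nop16 siRNA, a difference of 0.24. For both ratios all Nop16 siRNA libraries lay above all control libraries. The H2A.Z and H3.3 ratios differed by little between groups, by -0.07 for H2afz to H2afv (3.02 ± 0.0356 against 2.96 ± 0.00667) and by -0.06 for H3f3a to H3f3b (-0.64 ± 0.0231 against -0.70 ± 0.0138; SD, n = 3 each). Each of the 4 ratios separated the groups fully, which gives p = 0.1 in an exact two-sided permutation test (0.1 also when adjusted over the 4 pairs), the smallest value that 3 against 3 allows, so none can pass 0.05. Per exonic length, H2afz made up 88.2% of the counts of the H2A.Z pair in controls and 87.7% after Nop16 siRNA. H3f3a made up 35.3% and 34.4% of those of the H3.3 pair. These shares use the exonic length of the gene models, not of the transcripts present, and include multi-mapped fragments.

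**Figure D3:**
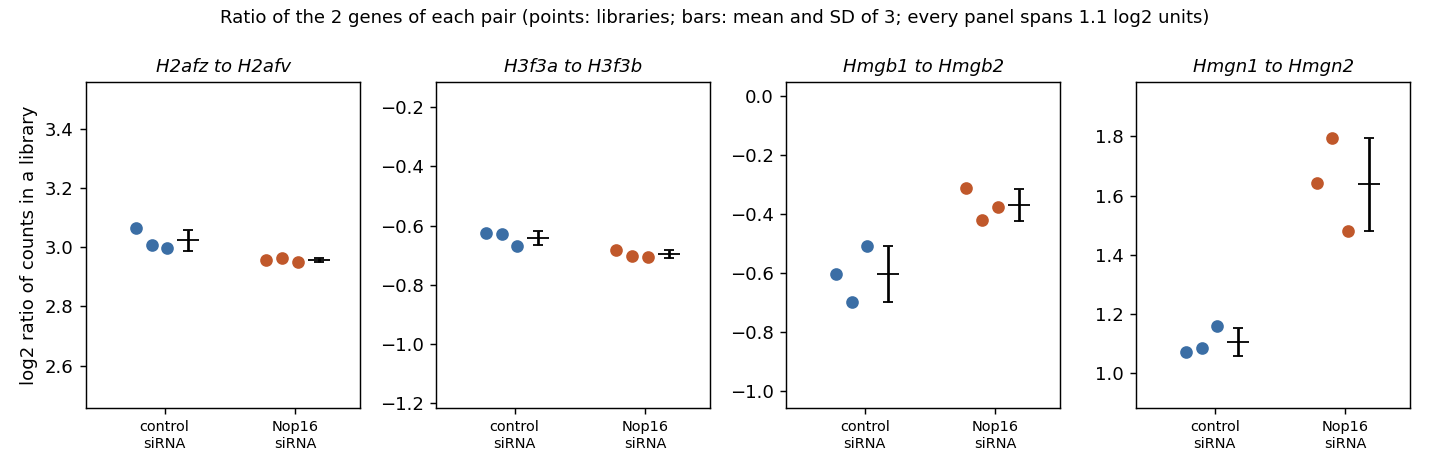
Each panel plots the log2 ratio of counts of 2 related genes, with a point per library (control siRNA blue, Nop16 siRNA orange) and the mean with its SD; every axis spans the same length. The Hmgn1 to Hmgn2 ratio goes from a mean of 1.11 to 1.64, while the H2A.Z and H3.3 ratios shift by 0.07 or less.

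Per kilobase of exonic length, H2afz was the most abundant of the 10 in controls (247 ± 3.88 CPM per kilobase, SD, n = 3), ahead of H3f3b (222 ± 1.79). After Nop16 siRNA the order was turned, with H3f3b at 190 ± 2.13 and H2afz at 163 ± 7.5, and in both groups the libraries of these genes did not overlap. This order depends on the exonic length of the gene models, 1776 bases for H2afz and 2976 for H3f3b, which need not be that of the transcripts present. In CPM not divided by length, H3f3b was above H2afz in controls (660 and 438) and after Nop16 siRNA (566 and 289). H3f3a (121 in controls, 99.6 after Nop16 siRNA), H2afx (89.9, 40.3), Hmgb2 (56.5, 36.1) and H2afv (33, 22.8) followed in controls, each apart from its neighbours. Hmgn1 (23.6, 24.3) stood close above Hmgb1 (22.2, 16.7) in controls, with the lowest Hmgn1 library at 23.5 and the highest Hmgb1 library at 23.2. H2afy (11.6, 10) and Hmgn2 (11.5, 8.24) overlapped in controls. After Nop16 siRNA Hmgn1 and H2afv overlapped, while Hmgb1 lay below Hmgn1 in all libraries.

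**Figure D4:**
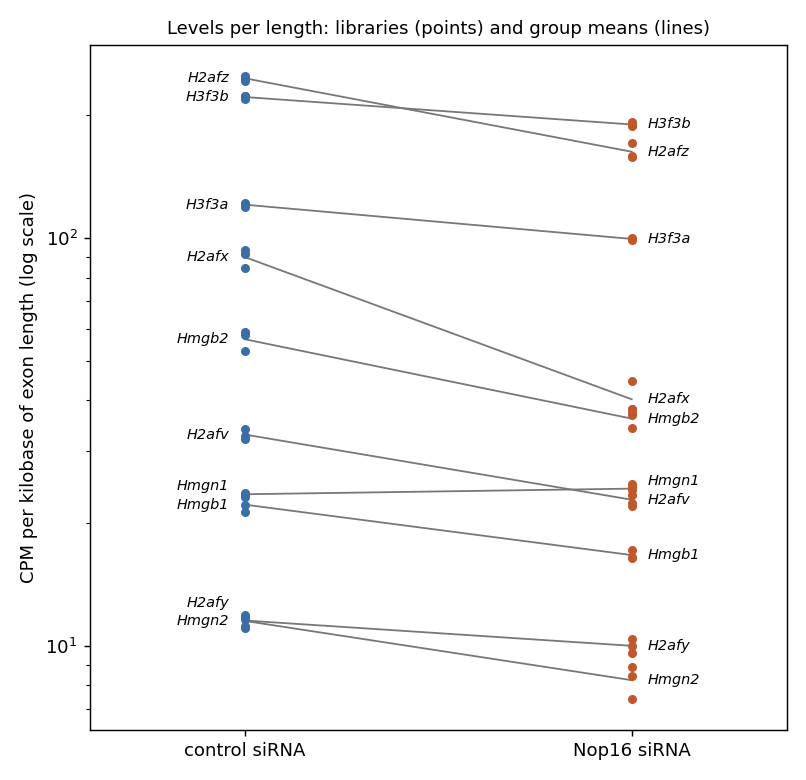
CPM per kilobase of exon length on a log scale in control siRNA (blue) and Nop16 siRNA (orange) libraries, with lines joining the group means of each gene. On this scale the lines of H2afz and H3f3b cross, as do those of Hmgn1 and H2afv. In CPM not divided by length, neither pair crosses. The line of H2afx is the steepest (89.9 to 40.3).

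Processed pseudogenes limit what some of these levels mean, since multi-mapped fragments were counted at each place. In GENCODE, 139 pseudogenes matched Hmgb1, taking matches of 85% identity and upwards that covered 50% or more of their length, and 44 of them had counts. Their counts came to 369% of the Hmgb1 count in controls and to 369% after Nop16 siRNA. A fragment that maps to several of these places can be in such a sum more than once. Gm15387, which matches Hmgb1 at 99.8% identity, had 3181, 3272 and 2777 counts in controls against 2552, 2485 and 2218 for Hmgb1 itself, and it fell by 0.42 (edgeR adjusted p = 2.17e-14) where Hmgb1 fell by 0.41. Which of these genes the fragments came from cannot be told apart in these counts, so the level of Hmgb1 relative to the other genes is uncertain. Hmgn2 had 26 matched pseudogenes with 33.7% of its count in controls and 38.2% after Nop16 siRNA, and the protein-coding model Gm10282, at 99.3% identity, had 545, 578 and 474 control counts beside 789, 828 and 680 for Hmgn2. Hmgb2 had 12 (18.8% and 18.5%), H3f3a 55 (5.18% and 5.37%), H2afz 5 (9.35% and 9.67%), H3f3b 3 (6.18% and 6.47%), Hmgn1 10 (6.65% and 6.66%), and H2afv and H2afy had none. The 3 pseudogenes matched to H2afx include Hist1h2al, an H2A-type sequence at 91.6% identity that rose by 1.01, and with the counts of these 3 added the fall of H2afx was 0.97 in place of 1.16. Protein-coding H2A genes also matched H2afx at these limits and were not added. Among them, named after their values were seen, H2afj (90.3% identity) had 1841, 1772 and 1641 counts in controls beside 2835, 2723 and 2523 for H2afx, and Hist2h2aa1 and Hist2h2aa2 (each 90.3%) rose.

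Promoter windows are shown for Hmgb2 and H2afz, which fell, and for Hmgn1, which did not pass the test. Each line gives the 250 bases before the start site in RefSeq (GRCm38.p6), 5′ to 3′ on the strand of the gene, with motif matches on either strand in capitals (the motifs are spelled out after the sequences). They lie at chr8:57511593-57511842 (plus strand), chr3:137864237-137864486 (plus) and chr16:96127726-96127975 (minus).
Hmgb2: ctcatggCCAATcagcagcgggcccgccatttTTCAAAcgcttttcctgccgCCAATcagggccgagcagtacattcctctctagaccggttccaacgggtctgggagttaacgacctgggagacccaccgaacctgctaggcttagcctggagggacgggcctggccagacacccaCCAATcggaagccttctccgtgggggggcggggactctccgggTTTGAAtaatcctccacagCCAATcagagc
H2afz: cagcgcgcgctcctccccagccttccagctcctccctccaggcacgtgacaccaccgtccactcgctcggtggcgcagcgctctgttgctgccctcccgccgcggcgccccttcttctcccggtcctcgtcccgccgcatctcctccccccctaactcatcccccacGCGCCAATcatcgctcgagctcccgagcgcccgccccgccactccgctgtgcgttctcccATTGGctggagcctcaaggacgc
Hmgn1: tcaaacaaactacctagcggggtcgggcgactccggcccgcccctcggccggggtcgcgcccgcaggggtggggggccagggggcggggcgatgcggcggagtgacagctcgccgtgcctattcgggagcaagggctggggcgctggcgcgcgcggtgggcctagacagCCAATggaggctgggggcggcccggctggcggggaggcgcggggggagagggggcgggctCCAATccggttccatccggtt

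The motifs were searched on both strands in 300 bases, 250 before and 50 after each start. The CCAAT box (CCAAT), which NF-Y binds, occurred in 8 of 10 promoters of the 9 genes that have one in the table and in 37.4% of 32851 promoters. The CHR element (TTTGAA), typical of genes of late cell cycle phases, was found for Hmgb2 and H2afv, in 2 of the 10 against 17.9% of all. In Hmgb2 its matches begin at -218 and -30 and those of the CCAAT box at -243, -198, -73 and -11, counting the start site as 0. An E2F core (TTCCCGC or TTCGCGC or TTGGCGC or TTGCCGC) was found for H2afz alone, 1 of 10 against 9.57% of all, beginning at -83 and overlapping a CCAAT box at -80. Hmgn1 had CCAAT boxes at -81 and -21. Like Hmgn1, the genes H3f3a, H3f3b, Hmgb1 and Hmgn2, which fell, had no CHR or E2F match. H2afy, which also fell, had no match of any motif searched. TATAAA was found in 1 of the 10 (H3f3b, at -27) and in 13.6% of all. These are matches of letters, not measured binding sites, and a link between them and the fold changes was not tested. H2afx has no entry in that table.

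Relatives of these genes were mixed. The counts for the gene lists from here on stand beside 22.4% lower and 23% higher over all genes tested. Of 17 other variant histone entries, 4 genes were tested, and Cenpa, the histone H3 of centromeres, fell by 0.92 from 77.3 ± 1.9 to 40.9 ± 2.6 CPM (edgeR adjusted p = 2.5e-22), and H1f0, a replacement linker histone, by 0.34 from 324 ± 11.2 to 256 ± 6.09 CPM (SD, n = 3 each). H2afj (80.9 and 79.1 CPM, adjusted p = 0.839 in edgeR) and Hist3h2a (11.8 and 9.81 CPM, 0.0572) did not pass. By its symbol Hist3h2a is a replication-dependent gene, not a variant, and it is counted among those genes below as well. H2afy2, for macroH2A2, named for its kinship with H2afy, had 21 counts over all 6 libraries and was not tested. Of 18 tested genes among 22 other HMG and HMG box entries, 10 were lower and 2, Hmgxb3 (0.23) and Tox4 (0.16), higher, with a median of -0.21. Hmga1, an AT-hook protein of proliferating cells, fell by 1.00 from 456 ± 3.8 to 229 ± 15.2 CPM. Hmga1b, a near-copy whose fragments may be shared with it, also fell by 1.00, Hmgb3 fell by 0.97 and the repressor gene Cic by 0.37.

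Of the replication-dependent histone genes, 30 of 67 were tested, 14 were lower and 3 higher, with a median of -0.66. The largest falls, of Hist1h2ad (-1.90), Hist1h1b (-1.65), Hist1h2ae (-1.34) and Hist1h2bl (-1.17), were in genes below 2 CPM. Hist2h2aa1, from 23.7 ± 0.263 to 38.5 ± 4.04 CPM, and its near-identical neighbour Hist2h2aa2, from 21.6 ± 0.719 to 34.7 ± 2.57 CPM, rose by 0.70 and 0.68, and Hist2h2ac by 0.52 with overlapping groups. Poly(A) enrichment keeps only those histone transcripts that carry a tail, so these values do not measure the stem-loop form. H2AX RNA, which also exists in both forms, is counted here only in its polyadenylated form.

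Genes that place or remove the variants changed in part. Of 27 genes of H2A.Z deposition and removal, 12 were lower and 3 (Mrgbp, Epc1 and Yeats4) higher, with a median of -0.09. The histone chaperone gene Nap1l1 fell by 0.45 from 191 ± 4.87 to 140 ± 7.98 CPM, the p400 complex gene Brd8 by 0.41, Anp32e, whose product strips H2A.Z from nucleosomes, by 0.41, and the reader gene Brd2 by 0.33. Srcap, for the remodeller that exchanges H2A for H2A.Z and named here after its value was seen, fell by 0.25.

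Of 15 genes of H3.3 deposition, 8 were lower and none higher, with a median of -0.18. Asf1b fell by 0.72 from 77 ± 2.59 to 46.8 ± 0.84 CPM, Dek by 0.57, Nasp by 0.52 and the helicase gene Mcm2 by 0.46 on the log2 scale. Mcm2 is counted among the cell cycle markers too, so the list is not confined to dedicated H3.3 chaperones. Hira (31.4 and 29.2 CPM, edgeR adjusted p = 0.235) and Daxx (28.7 and 30.5 CPM, 0.34), for the dedicated H3.3 chaperones and named after their values were seen, did not pass. Of 20 other histone chaperone genes, 17 were lower and 2 higher, with a median of -0.38. Oip5 (-0.80), which helps to load CENP-A, and Chaf1a (-0.53), of the replication-coupled chaperone CAF-1, were lower, and the importin gene Ipo4 (0.50) and Supt6 (0.22) were higher.

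Around H2AX, 12 of 18 tested genes for its phosphorylation and readers were lower and 1, Ppp4r2, was higher, with a median of -0.20. Brca1 fell by 0.72 from 64.6 ± 2.28 to 39.1 ± 0.772 CPM, the phosphatase gene Ppm1d by 0.48, Mre11a by 0.44 and the checkpoint kinase gene Atr by 0.32. For HMGB1 signalling and release, 18 of 19 genes were tested, 7 were higher and 4 (Tlr9, Ep300, Xpo1 and Parp1) lower, with a median of 0.04. The share that was lower was near the 22.4% of all genes tested. Tlr2 rose by 0.96 from 62.1 ± 2.39 to 121 ± 4.27 CPM, the co-receptor gene Cd14 by 0.70 and the acetyltransferase gene Kat2b by 0.52, whereas Tlr9, the endosomal DNA receptor, fell by 0.93 from 39.1 ± 1.23 to 20.5 ± 1.28 CPM. Ager, which encodes the receptor RAGE, stood at 0.579 and 0.417 CPM and did not pass (edgeR adjusted p = 0.464).

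Of 34 cell cycle markers, 32 were lower after Nop16 siRNA and none higher, with a median of -0.69; E2f1 and Gins2 did not pass. Their summed level was 4661 to 4794 CPM in controls and 2981 to 3025 CPM after Nop16 siRNA, with Kif11 (-1.31), Ccnb2 (-1.27), Bub1b (-1.15) and Plk1 (-1.13) lowest. The part of the cell cycle in the falls of H2afx, Hmgb2 and H2afz was not tested. Over the 6 libraries, the protein-coding genes closest to H2afx, by Euclidean distance of log2 CPM from the control mean, were E2f2 (distance 0.0951), Rfng (0.183) and Kif14 (0.191), with log2 fold changes of -1.12, -1.21 and -1.17. Those closest to Hmgb2 were Fancd2 (0.0612), Suclg2 (0.102) and Osbpl3 (0.106), at -0.62, -0.65 and -0.63. With 2 groups, this distance follows mainly the size of the group difference.

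**Figure D5:**
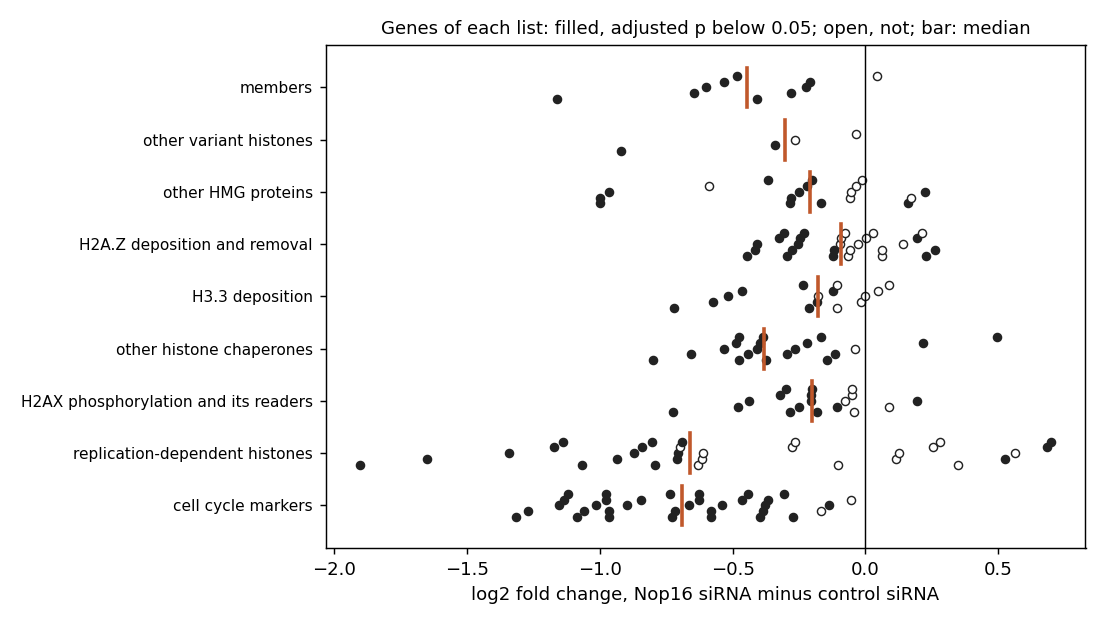
Each point is a gene at its log2 fold change (Nop16 siRNA minus control siRNA), filled where the edgeR adjusted p is below 0.05, in rows by gene list, and the orange bar is the median of the row. The 10 genes have a median of -0.45, between that of the H2A.Z deposition genes (-0.09) and that of the cell cycle markers (-0.69).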

How the data were processed

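Raw counts of fragments per gene were deposited by the authors for each of 6 libraries. Per the file headers, featureCounts 2.0.1 counted read pairs on Ensembl release 101 models of GRCm38 with strand setting 2, a minimum overlap of 10 bases, and multi-mapped and multi-overlapping fragments included; HISAT2 2.2.1 and Trim Galore (version not given in the sources used here) are named in the submitters' processing notes. Counting a fragment at several places makes genes with close copies uncertain. Symbols matched 55141 of 55401 identifiers, and 3 of 287 entries in the gene lists found no gene.

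Counts were tested with edgeR 4.0.16 (R 4.3.3): TMM scaling, filterByExpr, robust quasi-likelihood fit, glmTreat for the 1.2-fold minimum, and Benjamini-Hochberg adjustment over all 14269 genes at 0.05. Differences are Nop16 siRNA less control siRNA on the log2 scale, and the SE is the fold change over the root of F. Pseudogenes were matched with BLAST 2.17.0 to GENCODE M21 transcripts. Log CPM for distances used a prior count of 2. Named genes were all 10 members, up to 4 changed genes per list by size, counts of 5 or fewer by name (chosen after values were seen), the most counted pseudogenes, and the 3 closest genes at 5 CPM or more for the 2 members that changed most. Members and lists were chosen with earlier results of these data known. Chi-square per degree of freedom was 2.52 to 3.12 within groups, so no library was a copy of another.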

Additional observations from a re-analysis of the deposited data

How the results depend on the processing

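For the 10 genes, no direction and no call changed in 18 alternatives: size factors of DESeq2 1.42.0, upper-quartile scaling, library size only, DESeq2, limma-voom (limma 3.58.1), no filter, a filter of 5 CPM in 3 libraries, robust estimation off, a replicate block, protein-coding genes only, libraries thinned to the smallest total, pseudogene counts added, and leaving out each library. The log2 fold change of H2afx ran from -1.24 to -0.97. Its -0.97 came from adding pseudogene counts, those of Hist1h2al among them, and its other alternatives ran from -1.24 to -1.12. The log2 fold change of H2afy ran from -0.24 to -0.18 (largest edgeR adjusted p = 0.00498), and that of Hmgn1 from 0.02 to 0.07. Over all genes, 3195 were lower and 3287 higher, with 2639 to 3470 lower and 2692 to 3290 higher across the alternatives. Beyond 1.2-fold, computed for library size only, the 5 CPM filter, the block and each left-out library, 6 of the 10 were lower, except 5 without Nop16 siRNA replicate 2. With the replicate block, 9 of the 10 genes were lower, and 3188 of all genes were lower and 3241 higher. Same-numbered libraries did not deviate together (correlations of -0.01, 0.0007 and -0.05), so the block is no paired analysis. The 4 within-library ratios kept their direction in every alternative run for them, with the Hmgn1 to Hmgn2 difference at 0.45 to 0.61. Counts do not tell Hmgb1 from its pseudogenes. Adding pseudogene counts can count the same fragments again, so that alternative is no separate check of Hmgb1. Genes near the floor of testing, such as most Hist1 genes, carry large errors.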
